A study of Mus musculus with 12 samples.

Results

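Cadherins, protocadherins and the proteins of the desmosome were examined as a set of 69 genes among the 18193 genes measured in keratinocytes of mouse skin. A gene was taken when its symbol was Cdh or Pcdh with a number, a clustered protocadherin name, Dsg, Dsc or Pkp with a number, or Dsp, Jup or Ppl. Each gene was read through 1 probe set tied to no other gene, the one with the highest mean over the 12 arrays. Two-sided limma tests were fitted over all 18193 genes.

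The cells came from skin of mice with the strain label C57 DBA. No genotype, treatment, age or sex was used to split them. Magnetic sorting (MACS) had parted the keratinocytes into a CD34+ fraction, which carries the surface glycoprotein that marks the hair follicle bulge, and a CD34- fraction. There were 3 isolations, each a pool of 6 or more mice, and every RNA was read on 2 Affymetrix arrays, which gives 6 arrays per fraction. Which of the arrays were made from one RNA is not in the titles, so an n of 6 means arrays from 3 RNA samples. P-values computed over arrays are therefore too small where a pair from the same RNA is alike. In this bulk measurement, fewer cells of a type and less RNA per cell cannot be told apart.

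Cadherins are calcium-dependent adhesion proteins whose outer domains bind those of a neighbouring cell. Classical cadherins such as E-cadherin and P-cadherin hold adherens junctions, where catenins link them to actin. The desmosome is a sister junction built for strength: desmogleins and desmocollins span the membrane, plakoglobin and plakophilins bind their tails, and desmoplakin ties the plaque to keratin filaments. Epidermis depends on it, and the isoforms change from the basal to the outer layers. Protocadherins share the outer domain but not the catenin-binding tail. They are known best from neurons, where the clustered kind gives cells a surface identity.

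All values below are log2 signals, and a difference is the CD34+ mean minus the CD34- mean. An error beside a mean is the standard deviation over 6 arrays, and SE is limma's standard error of a difference. Signals of different probe sets are not compared as amounts of RNA. The low end of the scale was judged from the Trpn control, whose 3 probe sets match a bacterial gene and read 2.31 to 2.95. A gene was called when its Benjamini-Hochberg adjusted p was under 0.05.

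The sort was visible in its own marker: Cd34 read 10.15 ± 0.55 in CD34+ and 3.23 ± 0.30 in CD34- arrays, and 7 of 8 bulge markers were higher in CD34+ cells (Krt15 was not). Markers of other cells differed too. Of the marker lists, 5 of 6 basal keratinocyte genes, 6 of 6 T cell genes and 5 of 6 Langerhans cell genes were lower in CD34+ cells, 5 of 8 dermal fibroblast genes were higher, and limma called 0 of 6 genes of differentiated keratinocytes (1 lower at an unadjusted p under 0.05) and 0 of 8 endothelial genes (3 higher at that level). Melanocyte markers had 1 higher and 1 lower of 7. Schwann cell (1 of 3), Merkel cell (1 of 5) and smooth muscle (1 of 4) lists had 1 gene higher each, and skeletal muscle had 0 of 5, also at an unadjusted p under 0.05. The log2 of the summed T cell signal ran from 8.18 to 9.40 in CD34+ and from 10.41 to 11.35 in CD34- arrays, and that of the fibroblast list from 9.54 to 10.77 and from 8.84 to 9.45. By its mean over the 12 arrays, no marker of either list lay within the Trpn range. On single arrays some did: Pdgfra read 2.64 and 2.61 on CD34- arrays 4 and 6, and Col3a1 read 2.85 on CD34- array 4. Pairs of arrays had correlations of 0.947 to 0.995 inside a fraction and of 0.933 to 0.977 across fractions. A sign of RNA quality differed as well. The 3′ control probe set of Actb read above the 5′ one by 4.54 ± 0.66 in CD34+ and 2.48 ± 0.49 in CD34- arrays (two-sided exact permutation p = 0.00216). That is the smallest p that splits of 12 arrays into 6 and 6 can give, and such splits treat arrays of the same RNA as separate. The 3′ control probe set of Gapdh read above its 5′ one by 4.01 ± 0.36 and 3.41 ± 0.16 (exact permutation p = 0.00216). The poly-A spike-in probe sets, which report RNA added during preparation, averaged 9.95 ± 1.27 in CD34+ and 8.01 ± 0.25 in CD34- arrays (exact permutation p = 0.00433), with CD34+ array 4 the highest at 12.17. CD34+ arrays 1, 3 and 5 also stood apart, with a spread over probe sets of 1.92 to 2.07 against 2.19 to 2.32 on the other 9 arrays, so calls and counts of the 69 genes and of the junction lists are also given without them where they change. The part of cell makeup, RNA quality, spike-in level and array spread in the differences below was not tested.

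Desmosomal genes were mostly lower in the CD34+ fraction, while the cadherins and protocadherins outside desmosomes mostly did not pass the test. Of the 69 genes, 10 were lower in CD34+ cells, 3 were higher and 56 were not called. Over all genes, 18.1% were called lower and 7.99% higher, so falling genes made up 69.4% of all calls; after one more quantile normalization that share was 54.9%, and the set then had 10 lower and 2 higher. The fractions did not overlap on any array for 7 of the 69 genes, against 12.9% of all genes. The falls sat in the 13 desmosomal genes, with 8 lower (Dsg1a, Dsg1b, Dsg2, Dsc3, Pkp1, Pkp3, Pkp4 and Ppl), 1 higher (Pkp2) and a median difference of -0.72, and 2 further falls were those of Cdh4 and Cdh17. Without CD34+ arrays 1, 3 and 5, 7 of the 69 genes were lower and 5 higher, with 10.4% of all genes lower and 8.81% higher, and 5 of the 13 desmosomal genes were lower and 2 higher. The count of higher genes was the least settled: it was 10 without CD34+ array 4 and 5 without CD34+ array 6.

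**Figure D1:**
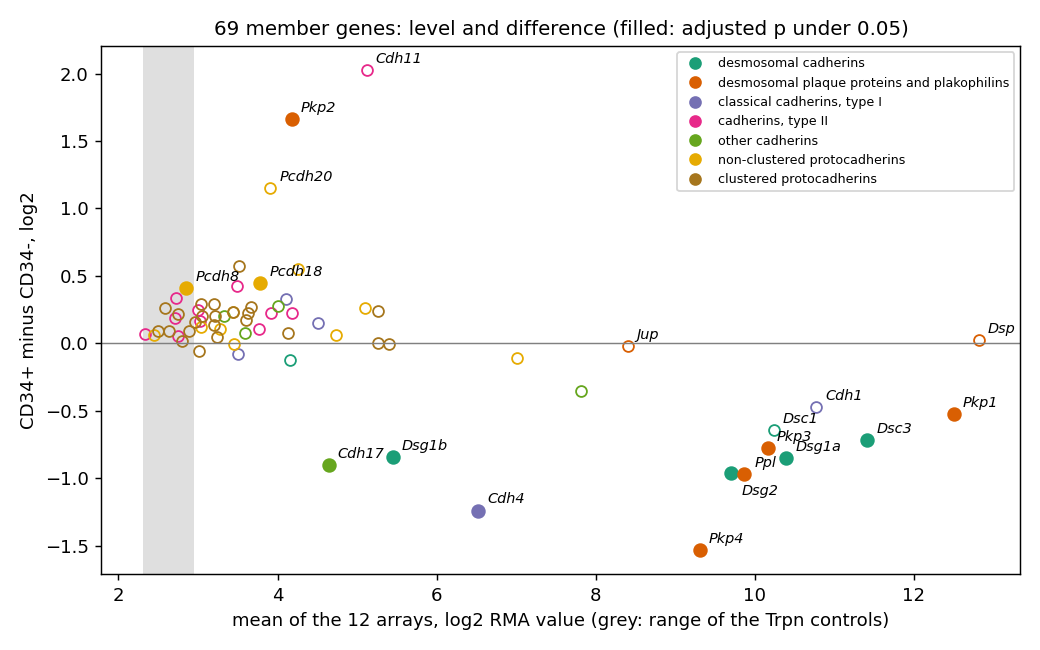
Mean log2 signal of each of the 69 genes over the 12 arrays (x axis) and its CD34+ minus CD34- difference in log2 units (y axis), coloured by role; filled points passed the test, and the grey band is the range of the Trpn controls. Of the 13 desmosomal genes, 10 lie at a mean above 8 and mostly below 0, and the protocadherins lie below 8, with differences between -0.11 and 1.15.

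Signal strength went along with this pattern. Of the 11 genes of the set with a mean signal over 8, 7 were lower and 0 higher, with a median difference of -0.72. Among all genes with a mean over 8, 31.2% were lower and 4.67% higher, and their median was -0.27. Of the 39 genes of the set with a mean of 4 or less, 2 were higher and 0 lower, with a median of 0.19, where 5.96% of all such genes were higher, 1.59% were lower and the median was 0.14. High-signal genes as a whole thus tended to read lower in the CD34+ arrays and low-signal genes slightly higher. Without CD34+ arrays 1, 3 and 5 the median over all genes was -0.04 above 8 and 0.02 at 4 or less, and that of the 11 strong genes of the set was -0.47.

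The desmosomal cadherins, which bridge the gap between cells, had 4 of 6 genes lower in the CD34+ fraction and 0 higher. Their median difference was -0.78, and -0.46 without CD34+ arrays 1, 3 and 5, when Dsg2 was the 1 gene still called. Basal keratinocyte markers were lower beside them in 5 of 6 cases over all 12 arrays, and in 3 of 6 without CD34+ arrays 1, 3 and 5. All 6 had a mean over 8, where 31.2% of all genes were lower. Dsg3, the desmoglein of the lower epidermal layers, was not analysed here.

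Dsg2 is the desmoglein of simple epithelia and of the hair follicle and basal layer. It read 8.67 at the lowest, 9.28 at the median and 9.58 at the highest on CD34+ arrays, and 9.61, 10.24 and 10.58 on CD34- arrays. The fractions did not overlap, although the gap between the closest arrays was narrow. The difference was -0.96 (SE 0.19, limma adjusted p = 0.00187), or 1.95-fold lower. Another 4 of its 6 probe sets were also lower over all probe sets, by 0.58 to 1.92, and 1 did not pass. Across the array, 13.9% of all probe sets were called lower and 7.64% higher.

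Desmoglein 1, the isoform of the upper epidermis and the target of the toxin of staphylococcal scalded skin, has several copies in the mouse. Dsg1a read 9.34, 9.91 and 10.54 (lowest, median and highest) in CD34+ and 10.63, 10.78 and 11.24 in CD34- cells, with no overlap. Its difference was -0.85 (SE 0.20, limma adjusted p = 0.00597), and -0.49 without CD34+ arrays 1, 3 and 5 (adjusted p = 0.0613). Dsg1b differed by -0.84 (limma adjusted p = 0.0204), and its call was lost without CD34+ array 1 (adjusted p = 0.0503) and without CD34+ arrays 1, 3 and 5 (-0.46, adjusted p = 0.252). The copies are nearly alike in sequence, so which of them a probe set reads is uncertain.

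The desmocollins are the partners of the desmogleins. Dsc3, the basal isoform, read 10.57, 10.99 and 11.52 in CD34+ and 11.37, 11.86 and 12.01 in CD34- cells (lowest, median and highest). Its difference was -0.72 (SE 0.16, limma adjusted p = 0.00519), and -0.47 without CD34+ arrays 1, 3 and 5 (adjusted p = 0.0613). The top CD34+ and bottom CD34- arrays overlapped. Dsc1, the isoform of the outer layers, read 9.14, 10.06 and 10.63 in CD34+ and 10.09, 10.59 and 10.99 in CD34- cells. With a difference of -0.64 it stayed just outside the threshold (limma adjusted p = 0.0527), and it passed without CD34+ array 4, CD34+ array 6 or CD34- array 3, with adjusted p down to 0.0161. Its second probe set was lower by 0.97 (limma adjusted p = 0.0111 over all probe sets). Dsc2, the widely expressed isoform, read 3.75, 3.99 and 4.61 in CD34+ and 4.01, 4.17 and 4.60 in CD34- cells, and its difference of -0.13 did not pass (limma adjusted p = 0.529).

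**Figure D2:**
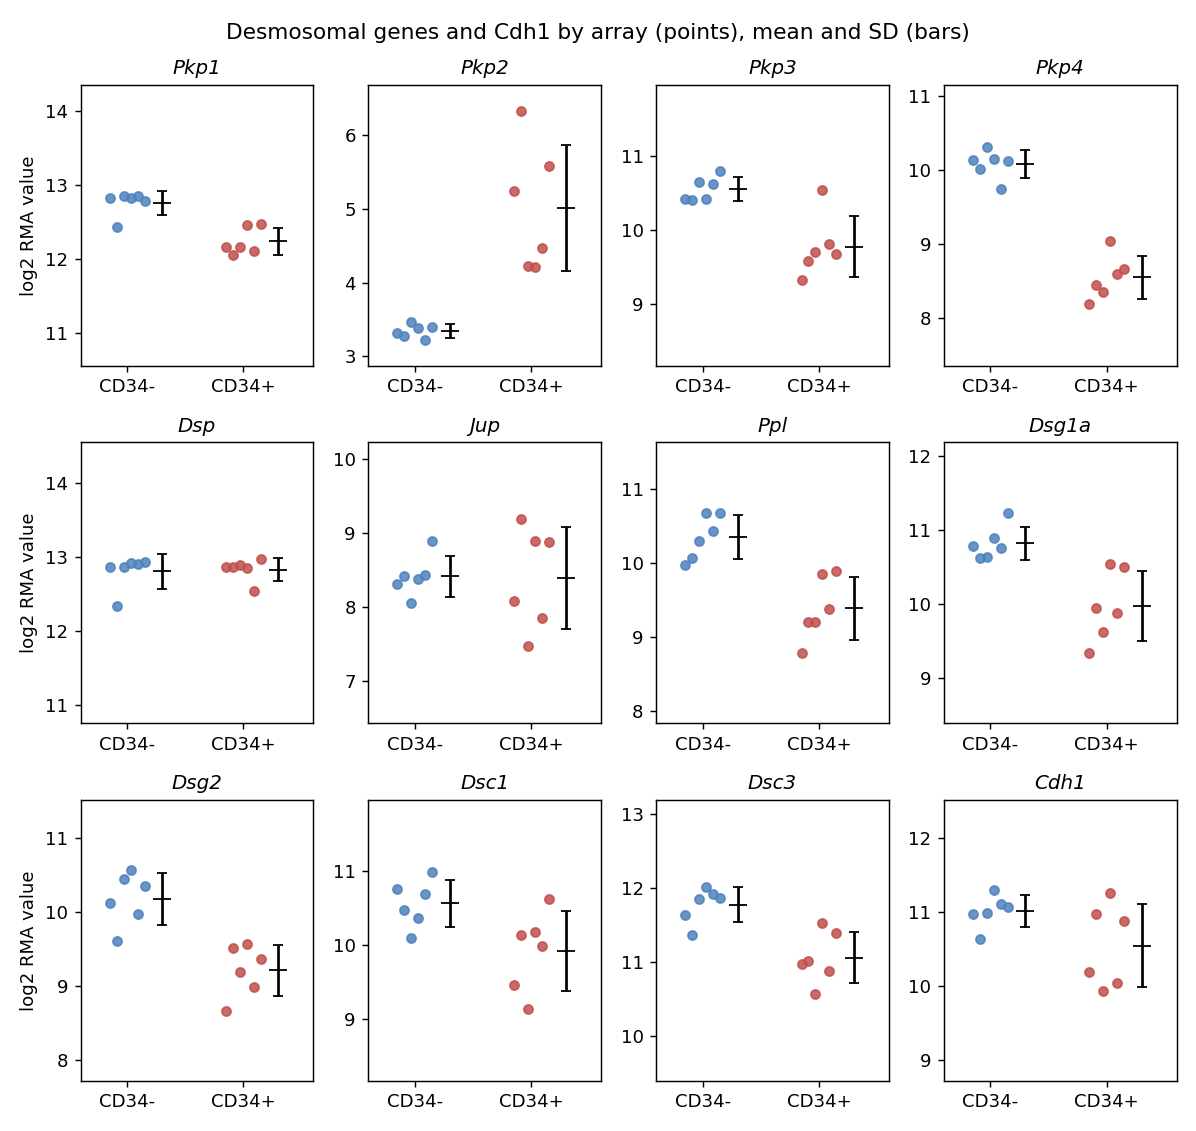
Log2 signal (y axis) of 11 desmosomal genes and Cdh1 on each array (points), with CD34- in blue, CD34+ in red, and mean and standard deviation as bars; each panel has its own scale. Pkp4, Ppl, Dsg1a and Dsg2 separate the fractions without overlap downward and Pkp2 upward, while Dsp and Jup overlap.

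The proteins of the inner plaque were mixed. Of 7 genes, 4 were lower (Pkp1, Pkp3, Pkp4 and Ppl), 1 was higher (Pkp2) and 2 were not called (Dsp and Jup), with a median difference of -0.53. Without CD34+ arrays 1, 3 and 5 the median was -0.43, with 4 lower and 2 higher.

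Plakophilins are armadillo-repeat proteins that gather desmosomal cadherins and desmoplakin into the plaque. Pkp4 (also called p0071), which is found at adherens junctions as well, showed the largest fall of the 69 genes. It read 8.19, 8.52 and 9.04 in CD34+ and 9.75, 10.13 and 10.32 in CD34- cells (lowest, median and highest), so that even the nearest arrays stood well apart. The difference was -1.53 (SE 0.14, limma adjusted p = 7.58e-06), or 2.9-fold lower, and -1.37 without CD34+ arrays 1, 3 and 5. Its second probe set was lower by 1.69 (limma adjusted p = 0.000532 over all probe sets). Pkp1, the plakophilin of the upper epidermis whose loss causes skin fragility, read 12.06, 12.16 and 12.48 against 12.44, 12.83 and 12.86. The fractions overlapped slightly, and the difference was -0.53 (SE 0.11, limma adjusted p = 0.00346). Pkp3, present in all epidermal layers, read 9.33, 9.69 and 10.55 against 10.41, 10.53 and 10.81. One CD34+ array, number 4, lay among the CD34- arrays, and the difference was -0.78 (SE 0.17, limma adjusted p = 0.00412). Its second probe set was lower by 1.07.

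Pkp2, the plakophilin of heart and simple epithelia, went the other way. It read 4.21, 4.85 and 6.33 (lowest, median and highest) in CD34+ cells and 3.22, 3.35 and 3.47 in CD34- cells, where it was close to the low end of the scale. Every CD34+ array was above every CD34- array, and arrays 1, 2 and 6 were the highest. The difference was 1.66 (SE 0.31, limma adjusted p = 0.00141), or 3.17-fold higher, and 2.03 without CD34+ arrays 1, 3 and 5. Of its 3 other probe sets 2 were also higher, by 0.46 and 0.30, and the third did not pass. Fibroblast markers were higher in the same fraction, 5 of 8, with Col1a2 at 7.67 to 8.88 against 4.20 to 5.58 in CD34- cells; their part in the Pkp2 difference was not tested.

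Periplakin (Ppl), a plakin that links desmosomes and the cornified envelope to keratin, read 8.78, 9.29 and 9.90 in CD34+ and 9.98, 10.36 and 10.68 in CD34- cells. The fractions came close but did not overlap, and the difference was -0.97 (SE 0.19, limma adjusted p = 0.00243), or 1.96-fold lower.

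Desmoplakin (Dsp), the anchor to keratin, read 12.54, 12.87 and 12.97 in CD34+ and 12.34, 12.89 and 12.94 in CD34- cells (lowest, median and highest). The fractions covered much the same range, and the difference of 0.03 (SE 0.12) did not pass (limma adjusted p = 0.881). Another of its 3 probe sets, also strong at a mean of 12.73, differed by 0.13 and did not pass (limma adjusted p = 0.443 over all probe sets). The weakest was lower by 1.11 (limma adjusted p = 0.002 over all probe sets), at 4.35 against 5.46. The weak probe set of this gene thus disagrees with the strong ones. Plakoglobin (Jup), shared by desmosomes and adherens junctions, read 7.47, 8.48 and 9.18 in CD34+ and 8.05, 8.40 and 8.89 in CD34- cells. Its difference of -0.02 (SE 0.27) did not pass (limma adjusted p = 0.956). The CD34+ arrays split: arrays 1, 3 and 5 read 8.07, 7.47 and 7.85, and arrays 2, 4 and 6 read 9.18, 8.90 and 8.88. Without the former, Jup was higher in CD34+ cells by 0.57 (limma adjusted p = 0.0278).

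The 250 bases before the start (for Pkp4, the first of 2 starts) of 3 of these genes are shown to set a gene with a large fall (Pkp4) beside one that was not called (Dsp) and one of the few that rose (Pcdh18). They come from RefSeq on GRCm38.p6. Windows were taken for 23 of the 69 genes, 27 windows in all. A chromosome that carries many genes of the set was left out of these. Pkp4 lies on the plus strand at chr2:59160600-59160849, Dsp on the plus strand at chr13:38151044-38151293 and Pcdh18 on the minus strand at chr3:49757317-49757566. Each reads 5′ to 3′ toward the gene, and capitals mark GC boxes, GGGCGG or CCGCCC on the printed strand, the motif known to bind Sp1.
Pkp4: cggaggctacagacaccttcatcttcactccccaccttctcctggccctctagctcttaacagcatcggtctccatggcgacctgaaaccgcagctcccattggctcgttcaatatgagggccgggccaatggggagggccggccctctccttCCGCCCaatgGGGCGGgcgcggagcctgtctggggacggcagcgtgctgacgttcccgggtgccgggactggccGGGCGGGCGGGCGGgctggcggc
Dsp: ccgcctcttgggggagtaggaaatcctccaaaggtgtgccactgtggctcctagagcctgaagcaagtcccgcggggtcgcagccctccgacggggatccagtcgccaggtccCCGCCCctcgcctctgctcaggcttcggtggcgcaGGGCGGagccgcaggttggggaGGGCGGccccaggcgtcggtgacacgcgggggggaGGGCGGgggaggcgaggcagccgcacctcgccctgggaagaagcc
Pcdh18: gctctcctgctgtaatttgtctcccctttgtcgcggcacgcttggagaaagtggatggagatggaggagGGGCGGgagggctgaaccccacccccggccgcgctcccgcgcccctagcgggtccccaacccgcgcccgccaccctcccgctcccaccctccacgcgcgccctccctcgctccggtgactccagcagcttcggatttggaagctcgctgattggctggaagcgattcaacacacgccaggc
The Pkp4 window held 5 GC boxes, of which the run near the end counts overlapping matches, Dsp held 4 and Pcdh18 held 1. The printed windows of the gene with a large fall and of the one without a call both had several. The GC box was in 11 of the 27 windows and in 32.7% of all 32851 windows of this length. No chromosome was left out of the latter, so they are not matched to the 27 and the shares are not compared. The E2 box (CAGGTG or CACCTG), which Snail and Zeb repressors of E-cadherin bind, was in 4 of the 27 and in 17.2% of all windows, and in none of the 3 printed. The window of the second Pkp4 start, among the 27 but not printed, held 1 E2 box and 0 GC boxes. A match only describes letters of the window.

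Of the 5 classical type I cadherins, 1 was lower and 0 were higher. E-cadherin (Cdh1), the main adherens junction cadherin of epidermis, read 9.93, 10.53 and 11.26 (lowest, median and highest) in CD34+ cells and 10.64, 11.02 and 11.30 in CD34- cells. The difference of -0.47 (SE 0.22) did not pass (limma adjusted p = 0.128), although it did without CD34+ array 4 (adjusted p = 0.0317). Here too the CD34+ arrays split, with arrays 1, 3 and 5 at 10.18, 9.93 and 10.03 and arrays 2, 4 and 6 at 10.98, 11.26 and 10.87, and without the former the difference was 0.02. P-cadherin (Cdh3), which marks basal cells and hair follicle matrix, read 4.17, 4.63 and 4.93 against 4.28, 4.40 and 4.66. The ranges overlapped and the difference of 0.15 did not pass (limma adjusted p = 0.352). N-cadherin (Cdh2, difference -0.08) and M-cadherin (Cdh15, difference 0.33), known from nerve and muscle, were not called.

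Cdh4 (R-cadherin, first described in retina) was the type I cadherin that fell. It read 5.25, 5.89 and 6.68 in CD34+ and 6.90, 7.14 and 7.37 in CD34- cells (lowest, median and highest). No array crossed between fractions, and the CD34- arrays were tightly grouped. The difference was -1.24 (SE 0.19, limma adjusted p = 0.000327), or 2.36-fold lower, and -0.97 without CD34+ arrays 1, 3 and 5. Its second probe set was lower by 1.28, and the third, within the Trpn range, did not pass.

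Of the 5 other cadherins, Cdh17 was lower. Cdh17, the liver-intestine cadherin, read 4.19 ± 0.44 in CD34+ and 5.10 ± 0.31 in CD34- cells (n = 6 each), a difference of -0.90 (SE 0.20, limma adjusted p = 0.0046). The top CD34+ array, number 3 at 4.98, lay among the CD34- arrays. T-cadherin (Cdh13), which is held to the membrane by a lipid anchor, had a difference of -0.35 that did not pass (limma adjusted p = 0.275), while 1 of its other probe sets was lower by 0.88 (limma adjusted p = 0.03 over all probe sets). Cdh16, Cdh23 and Cdh26 had differences of 0.27, 0.20 and 0.07 and were not called.

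**Figure D3:**
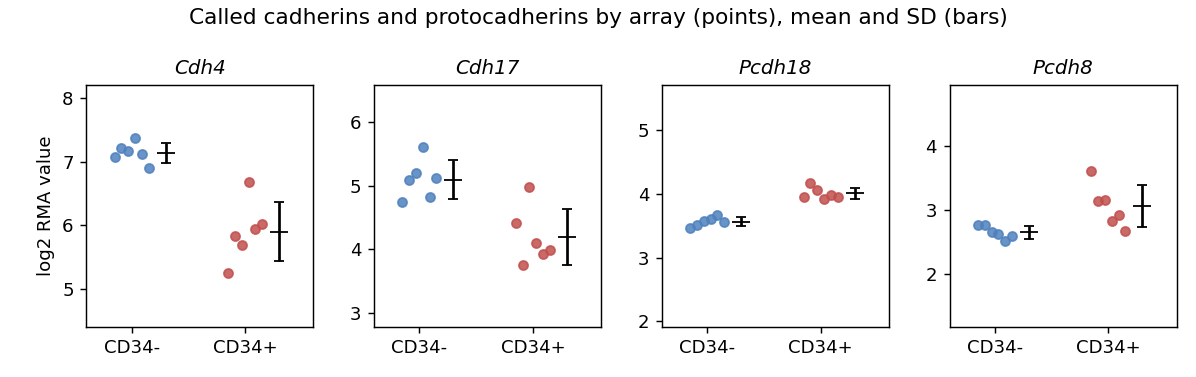
Log2 signal (y axis) of Cdh4, Cdh17, Pcdh18 and Pcdh8 on each array (points), with CD34- in blue, CD34+ in red, and mean and standard deviation as bars; each panel has its own scale. Cdh4 and Pcdh18 separate the fractions, while 1 CD34+ array of Cdh17 and 1 of Pcdh8 lie within the CD34- range.

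Limma called 0 of the 11 type II cadherins (3 were higher and 0 lower at an unadjusted p under 0.05), with a median difference of 0.22 and 11 of 11 differences above 0; after one more quantile normalization 9 of 11 were, and without CD34+ arrays 1, 3 and 5 the median was 0.03. The signal of the family was weak: 9 of the 11 had a mean signal of 4 or less and 4 lay within the Trpn range. Cdh5 (VE-cadherin, the endothelial cadherin) had a difference of 0.17, beside 0 of 8 endothelial markers called. Cdh6, Cdh7, Cdh9 and Cdh10 had differences of 0.23, 0.24, 0.34 and 0.43; Cdh6 passed without CD34+ array 2, Cdh7 without CD34+ array 6, and Cdh9 and Cdh10 without CD34+ array 4. Cdh8, Cdh18, Cdh19, Cdh20 and Cdh22 differed by 0.06 to 0.22.

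Cdh11 (OB-cadherin, the cadherin of mesenchyme and osteoblasts) had the largest difference of the 69 genes and did not pass the test; it was singled out after its values were seen. It read 8.51, 4.09, 8.66, 4.43, 7.11 and 4.02 on CD34+ arrays 1 to 6 and 6.50, 4.84, 6.31, 2.37, 2.19 and 2.44 on CD34- arrays 1 to 6. High and low arrays occurred in both fractions: CD34+ arrays 1, 3 and 5 and CD34- arrays 1 and 3 were the highest. The difference of 2.03 had an SE of 1.05 (limma adjusted p = 0.162), and without CD34+ arrays 1, 3 and 5 it was 0.07. Genes of mesenchymal cells, also chosen after their values were seen, moved with it. Col3a1, a fibroblast collagen, read 8.23 to 9.15 on CD34+ arrays 1, 3 and 5 and 4.60 to 5.96 on CD34+ arrays 2, 4 and 6. Zeb2, a repressor of E-cadherin, read 5.72 to 7.89 on the former and 2.17 to 3.25 on the latter. On these 3 arrays Cdh1 was at its lowest of all 12, and Jup at its lowest of the CD34+ arrays. Zeb2 also read 5.73 and 5.79 on CD34- arrays 1 and 3, where Cdh1 read 10.98 on both. A link between Zeb2 and Cdh1 was not tested. Fibroblast genes differed in this respect. Pdgfra was split like Col3a1, at 4.44 to 6.69 on CD34+ arrays 1, 3 and 5 and at 2.97 to 3.23 on arrays 2, 4 and 6. Col1a2 was not, at 7.67 to 8.50 on the former and 7.75 to 8.88 on the latter. Neither was Dpt, at 4.11 to 5.66 and 4.31 to 5.74. The part of fibroblasts in the Cdh11 signal was not tested.

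**Figure D4:**
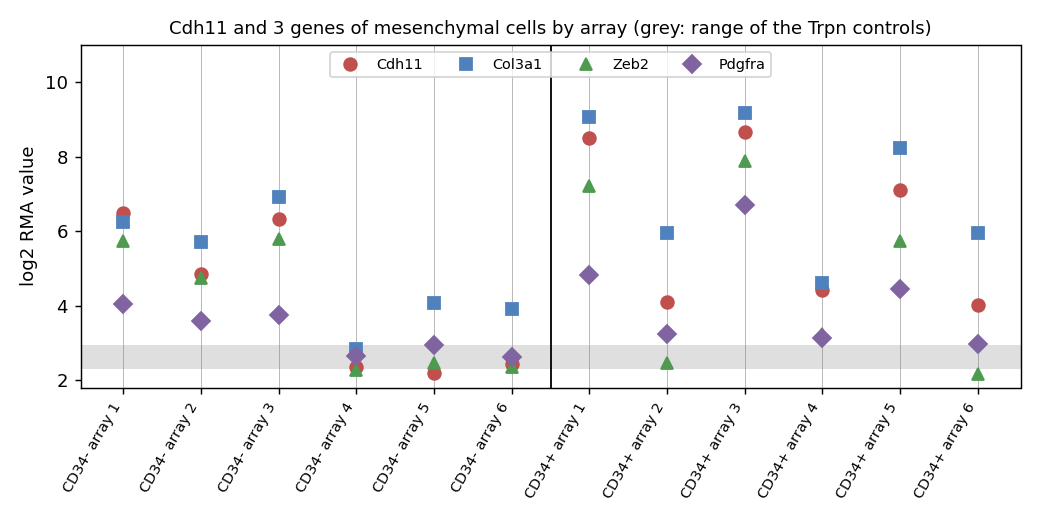
Log2 signal (y axis) of Cdh11, Col3a1, Zeb2 and Pdgfra on each of the 12 arrays (x axis); the grey band is the range of the Trpn controls, and only values of 1 gene across arrays are comparable. Cdh11, Col3a1 and Pdgfra are highest on CD34+ arrays 1, 3 and 5, where Cdh11 reads 7.11 to 8.66; Zeb2 reads 5.72 on CD34+ array 5, about as on CD34- arrays 1 and 3 (5.73 and 5.79).

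Of the 12 non-clustered protocadherins, 2 were higher and 0 lower, with a median difference of 0.18. Without CD34+ arrays 1, 3 and 5, 1 was higher and 0 lower, and the median was 0.03. Pcdh18, whose start is shown above, read 4.01 ± 0.09 in CD34+ and 3.56 ± 0.07 in CD34- cells (n = 6 each). The fractions did not overlap, and the difference was 0.44 (SE 0.08, limma adjusted p = 0.00141) and 0.45 without those 3 arrays. This was a small difference at a low signal, and neither of its other probe sets passed. Pcdh8 read 3.06 ± 0.33 and 2.65 ± 0.10, near the Trpn range, and its difference of 0.41 just passed (limma adjusted p = 0.0458). It was lost without any 1 of 10 arrays, all but CD34+ arrays 4 and 6, with adjusted p up to 0.0959. It was also lost without CD34+ arrays 1, 3 and 5 together (0.23, limma adjusted p = 0.208).

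Pcdh20 had a difference of 1.15 that did not pass (limma adjusted p = 0.0588); it was singled out after its values were seen. It read 5.65 and 6.29 on CD34+ arrays 1 and 2, 3.40 to 4.05 on the other CD34+ arrays, and 3.15 to 3.56 on CD34- arrays. Of the CD34+ arrays, 5 of 6 lay above every CD34- array, arrays 1 and 2 by the widest margin and array 3 (3.40) not at all. The gene passed without CD34+ array 3, 4 or 6 (limma adjusted p down to 0.0286). Pcdh7 did not pass at -0.11, while another of its probe sets was higher by 0.86 (limma adjusted p = 0.0139 over all probe sets). Pcdh19, mutated in a form of epilepsy, showed the reverse, at 0.26 without a call and with another probe set lower by 0.88 (limma adjusted p = 0.0038). Pcdh15, a protein of the tip links of hair cells in the ear, had a difference of 0.55 that did not pass (limma adjusted p = 0.15) and was -0.01 without CD34+ arrays 1, 3 and 5. The other 6 (Pcdh1, Pcdh9, Pcdh10, Pcdh11x, Pcdh12 and Pcdh17) differed by -0.01 to 0.24.

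The clustered protocadherins, 22 genes of the beta cluster and 1 of the gamma cluster (Pcdhgc4), had 0 of 23 genes called by limma in either direction (3 were higher and 0 lower at an unadjusted p under 0.05). Their differences ran from -0.06 (Pcdhb22) to 0.57 (Pcdhb15) with a median of 0.17, and 21 of 23 were above 0. After one more quantile normalization 19 of 23 were above 0 with a median of 0.04, and without CD34+ arrays 1, 3 and 5 it was 16 of 23 with a median of 0.09. Most gave little signal: 19 had a mean of 4 or less, a range in which 5099 of all 5975 genes had a difference above 0. The 4 with more were Pcdhb16, Pcdhb17, Pcdhb19 and Pcdhb20, with differences of -0.01, 0.00, 0.07 and 0.24. Pcdhb20 read 5.38 ± 0.35 and 5.14 ± 0.28, and without CD34+ arrays 1, 3 and 5 it was higher by 0.52 (limma adjusted p = 0.0441), as was Pcdhb9 by 0.52 (limma adjusted p = 0.016). Without CD34+ array 4 alone, Pcdhb3, Pcdhb10, Pcdhb13 and Pcdhb15 passed as higher. The beta genes are related in sequence, so a probe set may read more than its own gene. The alpha cluster had no gene with a probe set of its own; its 6 shared probe sets had means of 2.50 to 3.61, and 0 passed limma's test (1 was higher at an unadjusted p under 0.05).

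**Figure D5:**
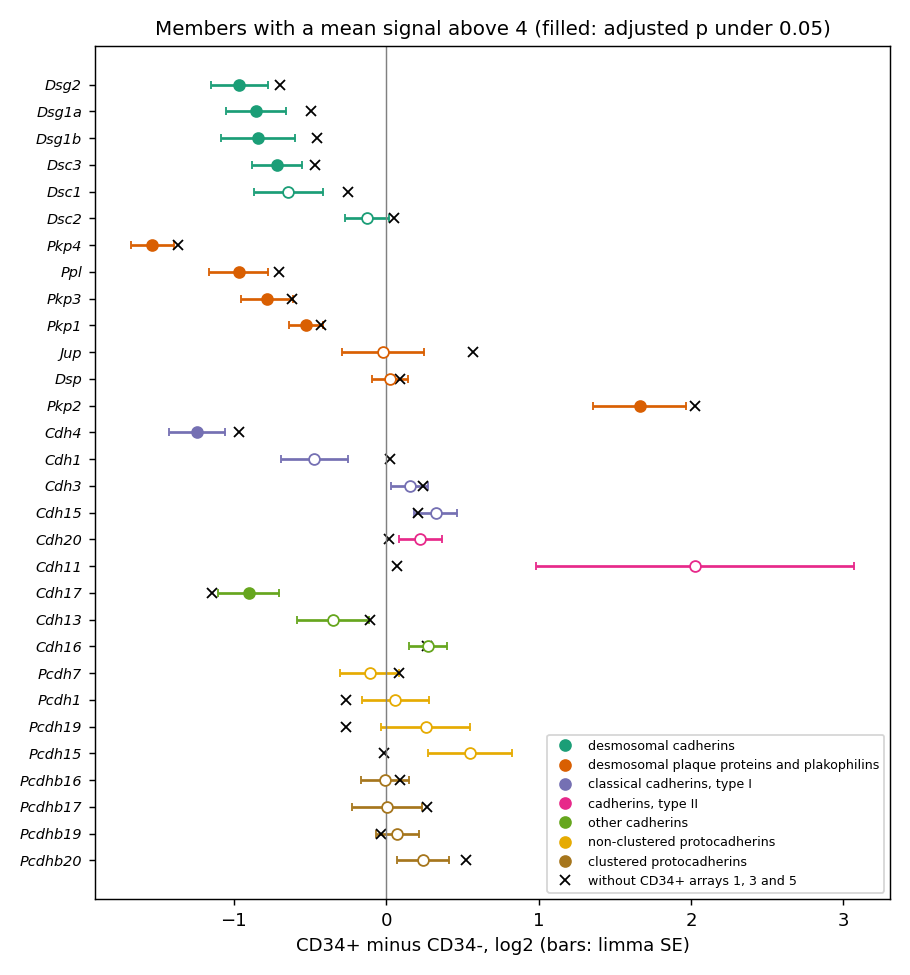
CD34+ minus CD34- difference in log2 units (x axis) of the genes with a mean signal above 4, by role, with limma's standard error as bars; filled points passed the test, and crosses give the value without CD34+ arrays 1, 3 and 5. Most crosses of desmosomal genes lie nearer 0 than the points but still below it, those of Pkp2, Jup, Dsp and Dsc2 lie above it, and that of Cdh11 lies at 0.07.

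The other probe sets of the called genes gave the same direction where they passed. There were 16, in 8 genes: 9 passed in the direction of the gene, 0 in the opposite direction, and 7 did not pass. Of 44 other probe sets of genes that were not called, 4 were lower (Cdh13, Dsc1, Dsp and Pcdh19) and 1 was higher (Pcdh7). Over all probe sets, 13.9% were lower and 7.64% higher. Without CD34+ arrays 1, 3 and 5, those of Dsp and Pcdh19 still passed. Those of Cdh13, Dsc1 and Pcdh7 then did not (limma adjusted p = 0.16, 0.155 and 0.056).

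The partners of these proteins were read from lists of junction genes. Their counts stand beside 18.1% of all genes lower and 7.99% higher. Among all genes with a mean over 8, 31.2% were lower and 4.67% higher. Without CD34+ arrays 1, 3 and 5, 10.4% of all genes were lower and 8.81% higher. Of 22 catenins, nectins and associated adherens junction genes, 5 were lower and 4 higher in CD34+ cells, with a median difference of -0.03. The core catenins Ctnnb1 (beta-catenin, difference 0.04) and Ctnna1 (alpha-catenin, difference 0.05) were not called. Both delta-catenins, which hold cadherins at the membrane and are relatives of Pkp4, were lower: Ctnnd2 by 1.68 (SE 0.17, limma adjusted p = 2.14e-05) and Ctnnd1 (p120) by 1.13 (SE 0.25, limma adjusted p = 0.00447), or by 0.63 without CD34+ arrays 1, 3 and 5 (adjusted p = 0.00596). The phosphatase Ptprk, which acts on junction proteins, was higher by 2.60 (SE 0.25, limma adjusted p = 1.14e-05), and Vezt (vezatin) by 1.28 (SE 0.21, limma adjusted p = 0.000642). Without CD34+ arrays 1, 3 and 5, 2 of this list were lower and 3 higher, and the median was 0.11.

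Of 11 genes associated with desmosomes or their cleavage, 3 were lower and 0 higher, with a median of -0.25. Evpl (envoplakin, the partner of periplakin) was lower by 1.00 (SE 0.19, limma adjusted p = 0.00195). Grhl1, a transcription factor known to drive Dsg1, was lower by 0.88 (SE 0.19, limma adjusted p = 0.00365). Grhl3, its relative, was lower by 0.53 (limma adjusted p = 0.0449), a call lost without any 1 of 10 arrays, all but CD34+ arrays 4 and 6 (adjusted p up to 0.0938). With CD34+ arrays 1, 3 and 5 left out, 2 of the list were lower and the median was 0.04. Perp, a membrane protein of desmosomes, was not called at -0.06, and neither were the kallikreins Klk5 (0.23) and Klk7 (-0.59).

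Of 17 atypical cadherins, 2 were lower and 0 higher, both flamingo cadherins of planar cell polarity. Celsr1 read 6.51 ± 0.98 in CD34+ and 8.29 ± 0.42 in CD34- cells, a difference of -1.77 (SE 0.38, limma adjusted p = 0.00346) and of -1.10 without CD34+ arrays 1, 3 and 5. Celsr2 was lower by 0.70 (SE 0.14, limma adjusted p = 0.00255). The giant cadherins Fat1 (-0.22) and Fat2 (0.55, limma adjusted p = 0.143) were not called. Fat2 passed as higher without CD34+ arrays 1, 3 and 5 (1.01, limma adjusted p = 0.0101), after one more quantile normalization (0.85, adjusted p = 0.0051) and when CD34+ array 3 was left out by itself (adjusted p = 0.025). Without the 3 arrays the list had 2 lower and 2 higher, the second being Clstn1 (0.72, limma adjusted p = 0.0169), named after its values were seen, and its median went from 0.18 to -0.03.

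Of 19 tight junction genes, 5 were lower and 2 higher, with a median of -0.22. Marveld3 was lower by 0.92 (limma adjusted p = 0.0116) and Tjp3 (ZO-3) by 0.91 (limma adjusted p = 0.024), a call lost without CD34+ array 1 or CD34- array 4 or 5 (adjusted p up to 0.0592). Cgnl1 (paracingulin) was higher by 0.86 (SE 0.19, limma adjusted p = 0.00484). Cldn23 was lower by 0.72 (limma adjusted p = 0.0389), a call lost without any 1 of 9 arrays, all but CD34+ arrays 4 and 6 and CD34- array 3 (adjusted p up to 0.0909). Without CD34+ arrays 1, 3 and 5, 0 of this list were lower and 1 was higher.

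Of 14 transcriptional regulators of cadherins, 1 was higher and 1 lower. Tcf4, a basic helix-loop-helix factor that binds E boxes, was higher by 1.14 (SE 0.20, limma adjusted p = 0.00111), and Ovol2, a keeper of epithelial identity, was lower by 1.02 (SE 0.24, limma adjusted p = 0.00731). Snai1 (0.32), Snai2 (-0.06), Zeb1 (-0.02) and Grhl2 (-0.28) were not called.

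Of 9 genes of cadherin shedding and turnover, 4 were lower and 0 higher. They were the phosphatase Ptpn1 (-0.98, limma adjusted p = 0.00281), the E-cadherin ubiquitin ligase Cbll1, known as Hakai (-0.86, limma adjusted p = 0.00725), the kinase Fer (-0.84, limma adjusted p = 0.00167) and the endocytic adaptor Numb (-0.57, limma adjusted p = 0.0131). The sheddase Adam10 was not called (0.11). With CD34+ arrays 1, 3 and 5 left out, 3 of the list were lower, and Numb was not (-0.29, limma adjusted p = 0.103). Of 11 regulators of the clustered protocadherins, 3 were lower and 0 higher: the cohesin subunits Smc3 (-0.89, limma adjusted p = 0.000157) and Smc1a (-0.59, limma adjusted p = 0.0158) and the cohesin loader Nipbl (-0.57, limma adjusted p = 0.0339). The Nipbl call was lost without CD34+ array 5 or CD34- array 2, 3, 4 or 5 (adjusted p up to 0.0764), and without CD34+ arrays 1, 3 and 5 Smc3 was the 1 gene still lower, with a list median of -0.19 against -0.37. Ctcf, which marks the cluster promoters, was not called at -0.69 (limma adjusted p = 0.111). Of the 11 regulators, 7 had a mean signal over 8, where 31.2% of all genes were lower.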

How the data were processed

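RNA of CD34+ and CD34- mouse skin keratinocytes was read on 12 Affymetrix arrays, 6 per fraction. The deposited table holds log2 values per probe set, made by the authors with RMA per the submitters' processing notes; the version, and whether all arrays were normalized together, are not given in the sources used here. RMA gives no detection call. Of 45101 probe sets, 64 controls were set aside; GEO's platform annotation (old symbols replaced by way of the Entrez number) gave 34945 a single gene, 932 several genes and 9160 none. A gene's brightest probe set on average stood for it, which left 18193 genes. Groups, from the titles, were tested in R 4.3.3 by limma 3.58.1 (lmFit, then eBayes, without a block, Benjamini-Hochberg adjusted p under 0.05); other probe sets were tested over all 45037. The number of arrays limits the precision. In simulated data for the CD34+ against CD34- comparison (18193 genes, 50 changed per size), 18% of changes of 0.5 log2 units were recovered, 78% of 1, 92% of 1.5 and 98% of 2. The simulated arrays were independent, with none sharing an RNA. Far fewer genes were changed than the 4750 called in the data, so these rates may not hold for the data.

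Values by array are given for called genes with a change of 2-fold or more and for the main epidermal junction genes; up to 4 called genes are named per junction list. The 69 genes, the lists, the alternatives and the 3 arrays left out together were chosen with earlier results of these data known. No protein sequences were used here. The alternatives covered normalization, leaving out arrays, means of arrays 1-2, 3-4 and 5-6, a block, all probe sets, a filter on low signal and an intensity trend.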

Additional observations from a re-analysis of the deposited data

Results flagged for a closer look

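In 138 comparisons of one array with the other 5 of its fraction (69 genes in each fraction), 12 arrays stood far from the rest by Dixon's test, in 10 genes. Chance alone gives such an array in about 1 of 20 groups. Desmoplakin (Dsp) read 12.54 on CD34+ array 5, below 12.86 to 12.97 on the others, and 12.34 on CD34- array 2, below 12.87 to 12.94 on the others. Pkp1 read 12.44 on the same CD34- array 2, below 12.79 to 12.86. Dsg1b read 6.83 on CD34- array 6, above 5.56 to 5.78.

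On CD34+ array 3, Cdh15 read 4.91 (others 3.98 to 4.27), Cdh20 read 4.92 (others 3.95 to 4.31) and Pcdh12 read 4.12 (others 3.35 to 3.59). Pcdh12 also read 3.56 on CD34- array 1 (others 3.22 to 3.32). Cdh6 read 3.62 on CD34+ array 2 (others 4.01 to 4.18), Cdh8 read 3.08 on CD34+ array 6 (others 2.68 to 2.83), Pcdhb19 read 3.58 on CD34+ array 4 (others 4.14 to 4.46) and Pcdhb16 read 5.76 on CD34- array 4 (others 5.22 to 5.40).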

How the results depend on the processing

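Over 20 alternatives, 9 of the 13 called genes passed in the same direction in every one (Cdh4, Cdh17, Dsg2, Pcdh18, Pkp1, Pkp2, Pkp3, Pkp4 and Ppl), and 0 of the 13 changed sign. Of the 13, 11 passed without each single array, the exceptions being Dsg1b and Pcdh8. Genes of the set called higher numbered 3 as reported, 6 with means of arrays 1-2, 3-4 and 5-6, 5 without CD34+ arrays 1, 3 and 5, 7 with an intensity trend and 2 to 10 when single arrays were left out. Genes called lower numbered 9 to 12 when single arrays were left out. Desmosomal genes called lower numbered 8 as reported and 5 without CD34+ arrays 1, 3 and 5, a fit with fewer arrays. Dsp and Jup, uncalled, became called with the other sign. Dsp did so at -0.32 over the mean of its probe sets, of which only the weakest was lower by itself. Jup did so at 0.57 without CD34+ arrays 1, 3 and 5. The spread over probe sets differed between fractions by -0.14 (exact permutation p = 0.0411) and without those arrays by -0.027 (exact permutation p = 0.393). Over all genes, calls numbered 4750 as reported, 3677 to 5957 when single arrays were left out and 3502 without CD34+ arrays 1, 3 and 5; the median difference stayed between 0.01 and 0.06. The cause of these shifts was not tested. Whether arrays of equal number were pairs is not settled here. Their deviations correlated between -0.27 and 0.50, and the own number was the best partner for 3 of 6. With that number as a replicate block, 5 genes of the set were higher and 11 lower, the added ones being Cdh11 (limma adjusted p = 0.02), Pcdh20 (0.0369) and Dsc1 (0.0132).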
